A study of Homo sapiens with 18 samples.

Results

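The prostaglandin synthesis genes described here are PLA2G4A, PTGS1, PTGS2, PTGES, PTGES2, PTGES3 and PTGIS, 7 of the 56269 genes in the deposited table. They were chosen by symbol from the known route from membrane phospholipid to prostaglandins, a rule that uses no measured value but was set with earlier results of these data known. All 7 passed the filter on low values, a mean of at least 10 normalized counts over the 18 libraries. RNA came from IMR90 cells, a human lung fibroblast line, which had first been kept for 6 h in PBS or in hyaluronan (HA) from naked mole-rat skin fibroblasts at 20 μg/ml. The HA was either fNSF-HA, partially fragmented with hyaluronidase that was then heat-inactivated, or cNSF-HA, the control preparation, which had been heated with enzyme inactivated beforehand. Cells are named below by this pre-incubation as PBS, cNSF and fNSF cells. Without tBHP, the cells were collected at the end of the pre-incubation. With tBHP (tert-butyl hydroperoxide, an oxidant), the medium was removed, 200 μM was applied for 1 h, and the cells were collected 6 h after its start. These 6 groups had 3 replicates each. Since no cells without tBHP were collected at the later time, the response to tBHP and the passage of these hours cannot be told apart. The study's methods call its replicates biological, and the labels do not say whether each library came from a culture of its own. The p-values measure the spread between these libraries.

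Prostaglandins are made in a short chain of reactions. Phospholipases free arachidonic acid from membrane lipids, cyclooxygenases turn it into the unstable endoperoxide PGH2, and terminal synthases turn PGH2 into the single prostaglandins. PGE2, made by the prostaglandin E synthases, and prostacyclin, made by prostacyclin synthase, are released from fibroblasts and act on neighbouring cells through G protein-coupled receptors. PTGS2 is known as an inducible gene that answers cytokines and stress, whereas PTGS1 is known for steady expression. The transcript levels below say nothing of enzyme activity or of prostaglandins released, which were not measured in these libraries.

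The libraries held between 20261103 and 26287660 reads counted on genes, with a median of 22526525. Replicates of a group had a median log2 SD of 0.076 without tBHP and 0.21 with it. In the libraries with tBHP, transcripts rose or fell with their GC content: in the 10% of genes with the most GC-rich transcripts (median 63.8%), log2 values deviated from the mean of these 9 libraries by a median of -0.78 in fNSF replicate 2 and -0.19 in fNSF replicate 1, and lay between -0.02 and 0.33 in the other 7. All 8 fibroblast markers tested for (among them COL1A1 and THY1) were present, with a summed level of 313786 to 533500 normalized counts in a library. Markers of epithelial cells, endothelial cells and leukocytes summed to at most 9.85, 25.1 and 19.0 normalized counts in a library.

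PTGS2, PTGES and PLA2G4A were the 3 members that passed the test (an adjusted p under 0.05, limma) as higher with tBHP after every pre-incubation. Their promoters are shown because these genes moved together, as 250 bases before the start site of the gene on its own strand, from RefSeq sequence of the GRCh38.p14 build. The regions are chr1:186680424-186680673 (minus strand) for PTGS2, chr9:129753043-129753292 (minus strand) for PTGES and chr1:186828699-186828948 (plus strand) for PLA2G4A. Capitals mark TATAAA (searched for as a TATA box), CGTCA (as the core of a cyclic AMP response element), TTNNGCAA (as a C/EBP site) and GCGTGGGCG (as an EGR1 site).
PTGS2 promoter: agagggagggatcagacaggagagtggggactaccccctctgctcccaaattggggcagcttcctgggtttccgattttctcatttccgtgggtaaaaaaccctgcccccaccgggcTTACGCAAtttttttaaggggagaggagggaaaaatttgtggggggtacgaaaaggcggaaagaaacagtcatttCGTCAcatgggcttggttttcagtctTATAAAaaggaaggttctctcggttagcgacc
PTGES promoter: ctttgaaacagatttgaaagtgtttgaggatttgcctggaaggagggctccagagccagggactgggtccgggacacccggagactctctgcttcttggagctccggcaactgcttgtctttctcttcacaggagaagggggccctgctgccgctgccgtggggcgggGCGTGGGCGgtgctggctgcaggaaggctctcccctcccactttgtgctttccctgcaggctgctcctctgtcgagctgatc
PLA2G4A promoter: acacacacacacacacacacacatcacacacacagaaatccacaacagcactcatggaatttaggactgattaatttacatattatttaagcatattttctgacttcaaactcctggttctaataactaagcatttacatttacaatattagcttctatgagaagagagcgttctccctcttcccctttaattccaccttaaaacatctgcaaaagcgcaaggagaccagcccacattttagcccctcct

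The PTGS2 promoter held TATAAA at 32 to 27 bases before the start, CGTCA at 58 to 54 and TTACGCAA at 133 to 126. Searched on both strands, TATAAA was in 10.7%, CGTCA in 21.2% and TTNNGCAA in 9.05% of the 35116 promoter windows of this length. The PTGES promoter held none of these letters, but GCGTGGGCG at 82 to 74 bases before the start, which 0.720% of the windows held, overlapping a GGGCGG of the kind known as a GC box (in 42.6% of windows). A loose NF-kB motif, found in 54.4% of windows, was in the PTGS2 promoter in overlapping matches at 225 to 214 bases before the start and in the PTGES promoter at 57 to 48. The PLA2G4A promoter held none of the 6 motifs searched, and at its upstream end it began with a run of CA repeats. Members other than these 3 held some of the same letters: GCGTGGGCG stood in 1 of the 3 promoter windows of PTGES2 (147 to 139 bases before its start), CGTCA in that of PTGES3 (21 to 17) and TATAAA, on the other strand, in 1 of the 2 windows of PTGS1 (208 to 203). These matches describe letters in a window and are not evidence of binding. Of the 7 members, 6 had a promoter entry.

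On chromosome 1 of GRCh38, PTGS2 (positions 186671791 to 186680427, minus strand) and PLA2G4A (186828953 to 186988981, plus strand) are neighbours, with 148525 bases between them. PTGS1 (122370530 to 122395703, plus strand), PTGES2 (128120693 to 128128462, minus strand) and PTGES (129738331 to 129753047, minus strand) lie on chromosome 9, PTGES3 (56663341 to 56688408, minus strand) on chromosome 12 and PTGIS (49503874 to 49568146, minus strand) on chromosome 20, as GENCODE release 29 places them. In that annotation no other gene shares exon bases with a member. PTGES3 has 5 pseudogenes in the table, whose highest value in any library was 36.3 normalized counts.

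The members differed widely in level. Per kilobase of exon and averaged over the 18 libraries, PTGES3 stood highest with 1943 normalized counts per kb, followed by PTGS2 (432), PTGES2 (314), PTGS1 (299), PTGES (58.4), PLA2G4A (50.7) and PTGIS (25.8). The order was not the same in every state. Without tBHP, PTGS2 had 232 to 256 normalized counts per kb on average in the 3 groups and PTGS1 had 277 to 284, and with tBHP PTGS2 had 553 to 690 and PTGS1 306 to 322. PTGES2 and PTGS1 lay close to each other, at 317 ± 6.35 and 284 ± 5.03 normalized counts per kb in PBS cells (SD, n = 3), and in cells with fNSF and tBHP at 259 ± 69.0 and 306 ± 21.8. PTGES and PLA2G4A did not differ beyond their spread in PBS cells without tBHP, at 34.8 ± 11.5 and 39.6 ± 2.98 normalized counts per kb.

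**Figure D1:**
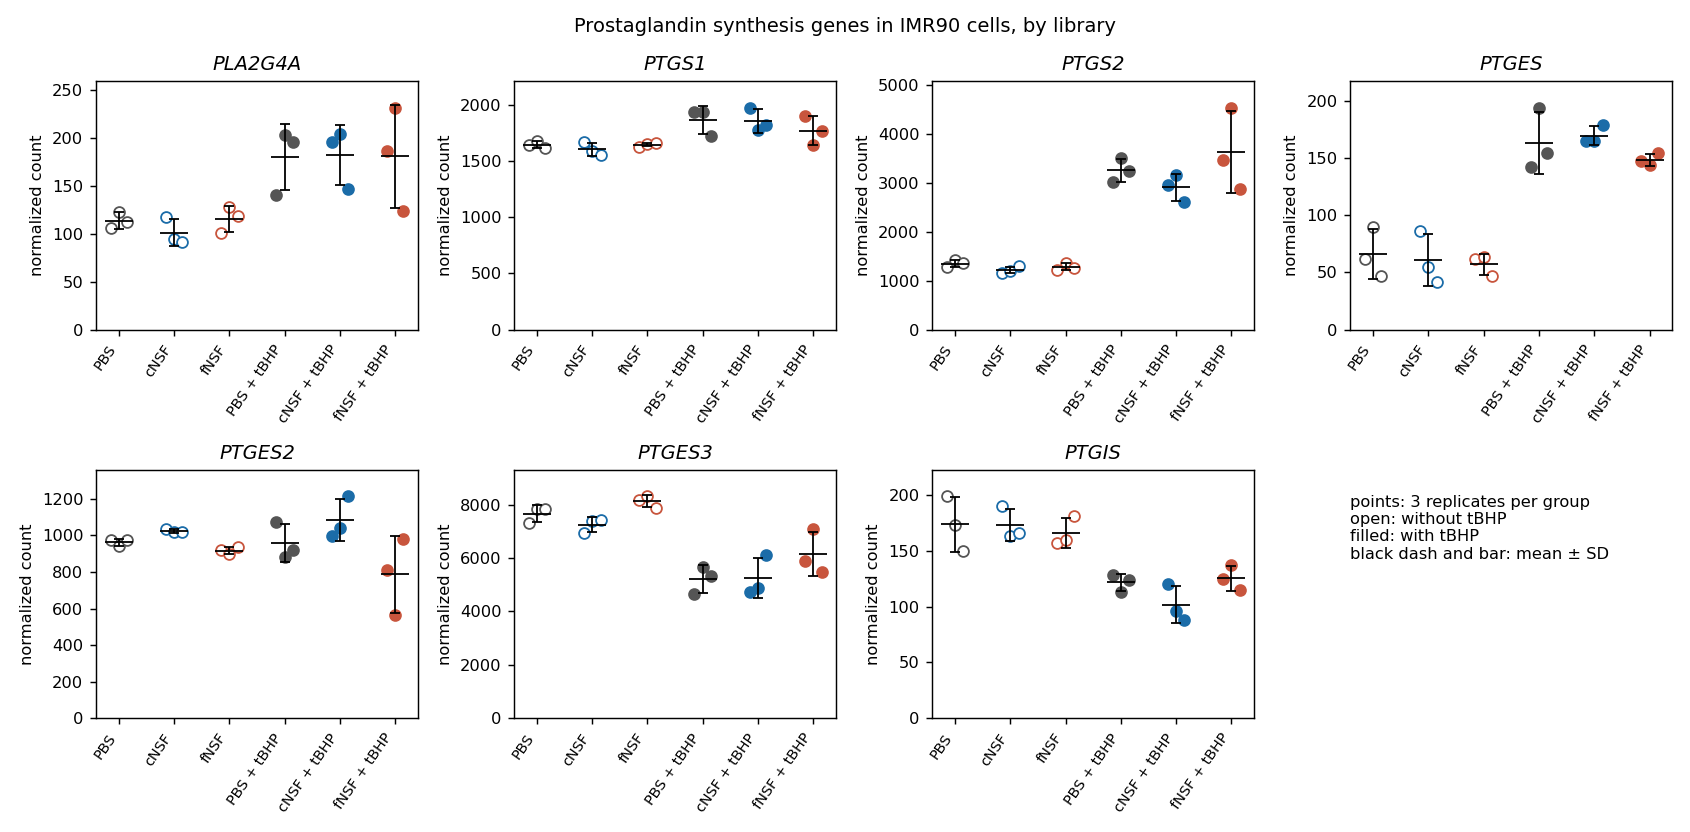
Normalized counts (vertical axes, from 0) of the 7 prostaglandin synthesis genes in the 18 libraries, by group (horizontal axes). Points are the 3 replicates of a group, open without and filled with tBHP, and black dashes and bars give the mean and the SD. PTGS2 and PTGES lie higher and PTGIS lower in all libraries with tBHP than in those without, PTGES3 lies lower with tBHP within each pre-incubation, whereas PTGS1 and PTGES2 moved little, and fNSF + tBHP has the widest spread for PTGS2 and PTGES2.

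The comparison of cells with and without tBHP asked how exposure to the oxidant changed expression after each pre-incubation. Of the 7 members, 4 were higher and 2 lower with tBHP in PBS cells, 4 were higher and 2 lower in cNSF cells, and 3 were higher and 2 lower in fNSF cells, at an adjusted p under 0.05 in limma's test. The response was broad in these cells. Of all 13686 genes tested, 51.1% passed after PBS (24.2% higher and 26.9% lower), 50.8% after cNSF (24.0% and 26.8%) and 41.9% after fNSF (19.2% and 22.7%). With the same sign in all 3 responses, 3 members rose (14.6% of all genes did so) and 2 fell (17.9%). The 3 with and the 3 without tBHP did not overlap for 6, 6 and 4 members in PBS, cNSF and fNSF cells, against 63.8%, 63.7% and 48.7% of all genes. The median log2 response of the members was 0.18, 0.21 and 0.10, and that of all genes tested 0.0043, -0.00053 and -0.03. In bulk RNA, a change in the number of cells that express a gene and a change in its RNA per cell cannot be told apart.

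PLA2G4A, the cytosolic phospholipase that releases arachidonic acid, had 106, 123 and 112 normalized counts in the 3 PBS libraries and 141, 204 and 196 in those with tBHP. In cNSF cells it had 117, 94.8 and 91.0 without and 196, 204 and 146 with tBHP, and in fNSF cells 101, 128 and 118 without and 187, 232 and 124 with tBHP. Every library with tBHP was above its counterparts without tBHP after PBS and after cNSF. After fNSF, replicate 3 with tBHP lay within the range of the cells without. PLA2G4A rose by a log2 difference of 0.64 in PBS cells (standard error 0.20, adjusted p = 0.0126), 0.84 in cNSF cells (adjusted p = 0.00208) and 0.60 in fNSF cells (adjusted p = 0.0220, limma). The call rested on single libraries in fNSF cells, where the difference was 0.55 without replicate 1 with tBHP (adjusted p = 0.0718), 0.40 without replicate 2 with tBHP (0.0926) and 0.51 without replicate 1 without tBHP (0.0927). It was also lost in a fit of only the groups compared, and kept in 13 of 17 alternatives. Without replicate 2 with tBHP of the PBS cells, the difference there was 0.54 (adjusted p = 0.0541).

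PTGS2, the inducible cyclooxygenase, had the smallest adjusted p of the 7 members in each tBHP response. It had 1271, 1416 and 1358 normalized counts in PBS cells, 1165, 1200 and 1298 in cNSF cells and 1229, 1364 and 1269 in fNSF cells. With tBHP it had 3030, 3509 and 3238 after PBS, 2960, 3167 and 2611 after cNSF, and 3476, 4545 and 2878 after fNSF. All 9 libraries with tBHP were above all 9 without, and fNSF replicate 2, the library in which GC-rich transcripts were lowest, was the highest. PTGS2 was 2.41-fold higher with tBHP in PBS cells (log2 difference 1.27, standard error 0.12, adjusted p = 1.35e-07), 2.38-fold in cNSF cells (1.25, adjusted p = 1.89e-07) and 2.77-fold in fNSF cells (1.47, adjusted p = 2.56e-08, limma). Every one of the 17 alternative settings kept each of these 3 calls, with log2 differences between 1.19 and 1.63.

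PTGS1, the cyclooxygenase that catalyses the same step, moved far less. It had 1639, 1677 and 1620 normalized counts in PBS cells and 1938, 1940 and 1723 with tBHP. After cNSF it had 1669, 1590 and 1551 without and 1975, 1773 and 1824 with tBHP, and after fNSF 1629, 1649 and 1658 without and 1898, 1646 and 1769 with tBHP. The groups did not overlap after PBS and cNSF, and overlapped after fNSF. The log2 difference was 0.18 in PBS cells (95% confidence interval 0.03 to 0.33, adjusted p = 0.0378), 0.21 in cNSF cells (0.07 to 0.36, adjusted p = 0.0171) and 0.10 in fNSF cells (-0.04 to 0.25, adjusted p = 0.251, limma). The first of these calls was lost when replicate 1 or 2 with tBHP or any replicate without tBHP was left out (log2 differences of 0.15 to 0.19, adjusted p from 0.0618 to 0.118) or no filter on low values was used (adjusted p = 0.0735), and the call in cNSF cells without replicate 1 with tBHP (0.17, adjusted p = 0.0792) or without replicate 2 or 3 without tBHP (0.21 and 0.19, adjusted p = 0.0503 and 0.0688).

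As both cyclooxygenases take the same substrate, their balance was taken in each library. Per kilobase of exon, the ratio of PTGS2 to PTGS1 was 0.852, 0.928 and 0.921 in PBS cells, 0.767, 0.830 and 0.920 in cNSF cells and 0.829, 0.909 and 0.841 in fNSF cells. With tBHP it was 1.72, 1.99 and 2.06 after PBS, 1.65, 1.96 and 1.57 after cNSF, and 2.01, 3.04 and 1.79 after fNSF. PTGS1 was thus the higher per length in each of the 9 libraries without tBHP, and PTGS2 in each of the 9 with tBHP. The ratio rose 2.13-fold, 2.06-fold and 2.58-fold, each with an exact two-sided permutation p of 0.1, the smallest that 3 against 3 libraries allow.

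PTGES, the microsomal prostaglandin E synthase known to be induced together with PTGS2, had few reads without tBHP. It had 61.8, 89.6 and 46.7 normalized counts in PBS cells and 142, 194 and 154 with tBHP. After cNSF it had 85.9, 54.7 and 41.4 without and 164, 164 and 179 with tBHP, and after fNSF 61.8, 63.1 and 46.6 without and 147, 144 and 154 with tBHP. The lowest of the 9 libraries with tBHP was above the highest of the 9 without. PTGES was 2.52-fold higher with tBHP in PBS cells (log2 difference 1.33, standard error 0.23, adjusted p = 0.000131), 2.88-fold in cNSF cells (1.53, adjusted p = 3.62e-05) and 2.59-fold in fNSF cells (1.37, adjusted p = 0.000129, limma). All 3 calls held in every alternative.

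PTGES3, a cytosolic protein known both as a prostaglandin E synthase and as the HSP90 co-chaperone p23, went the other way. It had 7308, 7843 and 7834 normalized counts in PBS cells, 6922, 7373 and 7432 in cNSF cells and 8181, 8308 and 7867 in fNSF cells. With tBHP it had 4641, 5677 and 5343 after PBS, 4732, 4887 and 6095 after cNSF, and 5879, 7092 and 5484 after fNSF. Within each pre-incubation all libraries with tBHP were lower, and the highest of them was fNSF replicate 2. PTGES3 fell by 0.56 on the log2 scale in PBS cells (standard error 0.10, adjusted p = 0.000166), by 0.48 in cNSF cells (adjusted p = 0.000734) and by 0.41 in fNSF cells (adjusted p = 0.00311, limma), to 67.9%, 71.9% and 75.3% of the level without tBHP. These calls held in every alternative.

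PTGES2, a Golgi-associated prostaglandin E synthase, did not pass in any response. It had 973, 940 and 973 normalized counts in PBS cells, 1034, 1019 and 1016 in cNSF cells and 919, 897 and 934 in fNSF cells. With tBHP it had 1074, 880 and 921 after PBS, 995, 1040 and 1214 after cNSF, and 812, 565 and 982 after fNSF. The replicates without tBHP lay close together and those with tBHP apart, fNSF replicate 2 being the lowest of all. The log2 difference was -0.01 in PBS cells (95% confidence interval -0.30 to 0.28), 0.08 in cNSF cells (-0.21 to 0.36) and -0.26 in fNSF cells (-0.55 to 0.03), with adjusted p-values of 0.956, 0.662 and 0.143 in limma's test. Without replicate 3 with tBHP the difference in fNSF cells was -0.44 and passed the threshold (adjusted p = 0.00687). With each library's trend with transcript GC content and length removed, relative to the libraries of the same tBHP state, it was -0.0091 (adjusted p = 0.904, limma).

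PTGIS, prostacyclin synthase, had 199, 174 and 150 normalized counts in PBS cells and 128, 113 and 124 with tBHP. After cNSF it had 190, 163 and 166 without and 120, 96.4 and 88.4 with tBHP, and after fNSF 157, 160 and 182 without and 125, 137 and 115 with tBHP. All 9 libraries with tBHP were below all 9 without. PTGIS fell by 0.50 on the log2 scale in PBS cells (standard error 0.13, adjusted p = 0.00440), by 0.77 in cNSF cells (adjusted p = 0.000128) and by 0.40 in fNSF cells (adjusted p = 0.0223, limma). The call in fNSF cells was lost without replicate 1 or 3 with tBHP (log2 differences of -0.40 and -0.34, adjusted p = 0.0557 and 0.0759) and without replicate 3 without tBHP (-0.34, adjusted p = 0.0986). It was also lost with quantile normalization (-0.33, adjusted p = 0.0657).

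**Figure D2:**
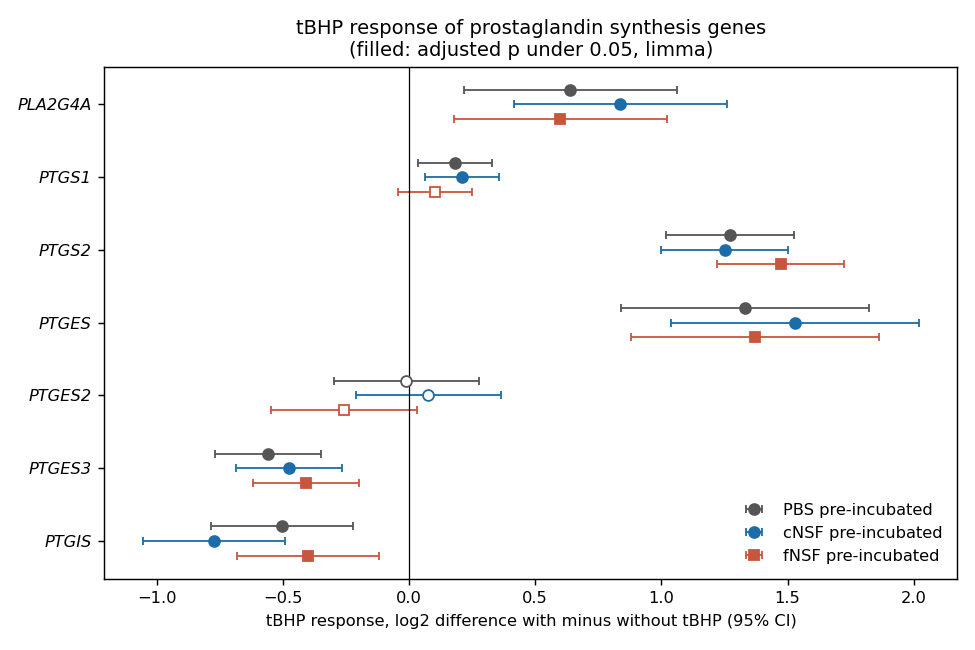
tBHP response of the 7 prostaglandin synthesis genes: log2 difference between cells with and without tBHP (horizontal axis) with 95% confidence intervals, for PBS, cNSF and fNSF pre-incubated cells. Filled symbols passed an adjusted p of 0.05 in limma's test. PTGS2 and PTGES lie between 1.25 and 1.53, PTGES3 and PTGIS between -0.77 and -0.40, and the intervals of a gene overlap across the 3 pre-incubations.

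Whether a pre-incubation changed the response was tested as a difference between responses. By limma, 0 of the 7 members passed in each of the 3 contrasts (background 0.0% of all genes in each), and 0 had an unadjusted p under 0.05, against 4.06%, 6.88% and 3.89% of all genes for cNSF against PBS, fNSF against PBS, and cNSF against fNSF. DESeq2 called no member (0.0%, 0.0438% and 0.0% of all genes), nor did edgeR (0.0% in each). For PTGS2, the response in cNSF cells differed from that in PBS cells by -0.02 on the log2 scale (95% confidence interval -0.38 to 0.34), and the response in fNSF cells by 0.20 (-0.16 to 0.56). The widest gap among the members was that of PTGIS between cNSF and fNSF cells, -0.37 (-0.77 to 0.03, adjusted p = 0.710). For PTGES the intervals were wider, from -0.65 to 0.73 for fNSF cells against PBS cells, so that a moderate difference was not detectable with these libraries.

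The comparisons between pre-incubations asked whether HA, and its polymer length, changed these genes. Without tBHP, 0 of the 7 members passed in limma's test in any of the 3 comparisons (background 0.0% in each), and 0 had an unadjusted p under 0.05, which 0.921%, 0.796% and 1.51% of all genes reached between cNSF and PBS, fNSF and PBS, and cNSF and fNSF cells. DESeq2 called no member (0.0%, 0.0219% and 0.0% of all genes), nor did edgeR (0.0% in each). The spread in limma's test came from all 18 libraries together, with a median log2 SD of 0.21 with tBHP and 0.076 without. For the typical gene, cells without tBHP were thus judged against more spread than their own libraries had, and small differences could be missed. The log2 differences lay between -0.20, for PLA2G4A between cNSF and fNSF cells (95% confidence interval -0.62 to 0.22), and 0.16, for PTGES2 in the same comparison (-0.13 to 0.45). The level of PTGS2 was lower by 0.14 with cNSF (-0.40 to 0.11) and by 0.07 with fNSF (-0.32 to 0.19) than with PBS. PTGES2 was highest with cNSF and lowest with fNSF in these libraries, by differences that did not pass. A fit of only the groups compared called 2 members between cNSF and fNSF cells, PTGES2 (0.16, adjusted p = 0.0223) and PTGES3 (-0.17, adjusted p = 0.00106), where it called 7.16% of all genes in limma's test. GC-rich transcripts, grouped as above, deviated by a median of 0.04 to 0.08 in these cNSF libraries and -0.07 to -0.02 in the fNSF libraries. With the trend with transcript GC content and length removed, in a fit to all libraries, the differences were 0.03 for PTGES2 and -0.11 for PTGES3. Whether this trend accounts for the 2 calls was not tested.

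With tBHP, limma again called 0 members in any of the 3 comparisons, where 0.0%, 0.139% and 0.0% of all genes passed between cNSF and PBS, fNSF and PBS, and cNSF and fNSF cells. An unadjusted p under 0.05 was reached by 0, 2 and 4 members, and by 8.64%, 22.7% and 32.2% of all genes. The 4 members between cNSF and fNSF cells were PTGES2, with a log2 difference of 0.49 (95% confidence interval 0.20 to 0.78, adjusted p = 0.0981), PTGIS with -0.31 (-0.59 to -0.03, adjusted p = 0.127), PTGS2 with -0.30 (-0.55 to -0.05, adjusted p = 0.111) and PTGES3 with -0.23 (-0.44 to -0.02, adjusted p = 0.126). Between fNSF and PBS cells they were PTGES2 with -0.32 (adjusted p = 0.192) and PTGES3 with 0.23 (adjusted p = 0.189). DESeq2 called PTGES2 between cNSF and fNSF cells (adjusted p = 0.0374), where it called 6.74% of all genes, and no member in the other 2 comparisons (0.0365% and 3.23%). edgeR called no member (0.0%, 0.263% and 0.0% of all genes). The libraries did not overlap for 2 members between cNSF and fNSF cells, PTGES and PTGES2, both higher with cNSF (13.4% of all genes did not overlap).

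**Figure D3:**
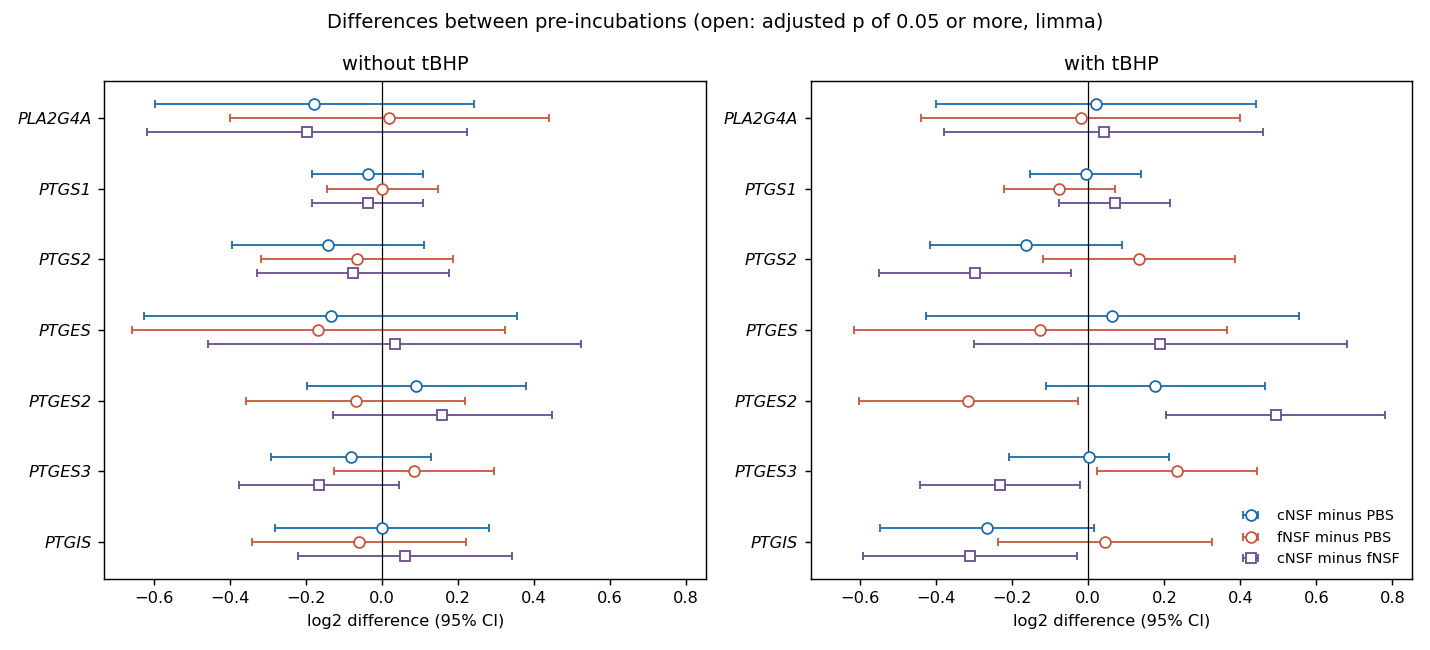
Log2 differences between pre-incubations for the 7 prostaglandin synthesis genes, without tBHP (left) and with tBHP (right), with 95% confidence intervals. All symbols are open, since no difference passed an adjusted p of 0.05 in limma's test. The interval of PTGES2 between cNSF and fNSF cells with tBHP (0.20 to 0.78) lies farthest from 0.

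The levels of PTGES2 and PTGS2 in the libraries with tBHP differed alongside the GC trend of those libraries. PTGES2 has the highest GC content of the members, 65.7% of the bases of its longest transcript, and PTGS2 the lowest, 36.9%. Among the 9 libraries with tBHP, PTGES2 was lowest (565 and 812 normalized counts) in fNSF replicates 2 and 1, in which GC-rich transcripts were lowest, and highest (1214) in cNSF replicate 3, in which they were highest. PTGS2 ran in the opposite order at these ends, with 4545 normalized counts in fNSF replicate 2 and 2611 in cNSF replicate 3. With the trend with transcript GC content and length removed from each library, the difference between cNSF and fNSF cells was -0.03 for PTGES2, -0.01 for PTGS2 and -0.10 for PTGES3. That of PTGIS stayed at -0.31, that of PLA2G4A went from 0.04 to 0.25, and that of PTGES from 0.19 to -0.04. For the 7 members limma's adjusted p then lay between 0.198 and 0.946. Over all alternatives the adjusted p of PTGES2 in this comparison ranged from 0.00128 to 0.809. In the same setting the tBHP responses of PTGS2 were 1.36, 1.29 and 1.34 in PBS, cNSF and fNSF cells, and those of PTGES3 were -0.50, -0.46 and -0.48. The trend was fitted to deviations from the mean of the libraries in the same tBHP state. A GC dependence shared by all libraries with tBHP was therefore not removed from these responses.

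In limma's test, that no member was called between fNSF cells and the cNSF or PBS cells with tBHP rested on fNSF replicate 3. In fNSF replicates 1 and 2, GC-rich transcripts deviated by a median of -0.19 and -0.78. Replicate 3 lay at 0.17, so leaving it out kept only the 2 fNSF libraries in which these transcripts were lowest. Without it, limma called 3 members between cNSF and fNSF cells, namely PTGES2 (log2 difference 0.67, adjusted p = 0.00128), PTGS2 (-0.45, adjusted p = 0.00368) and PTGES3 (-0.31, adjusted p = 0.0229), where it called 40.8% of all genes tested. Between fNSF and PBS cells it then called the same 3 members, PTGES2 (-0.49), PTGS2 (0.29) and PTGES3 (0.31), and 29.4% of all genes. Without fNSF replicate 2 the differences of PTGES2 were smaller, 0.27 between cNSF and fNSF cells (adjusted p = 0.572) and -0.10 between fNSF and PBS cells (adjusted p = 0.823).

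**Figure D4:**
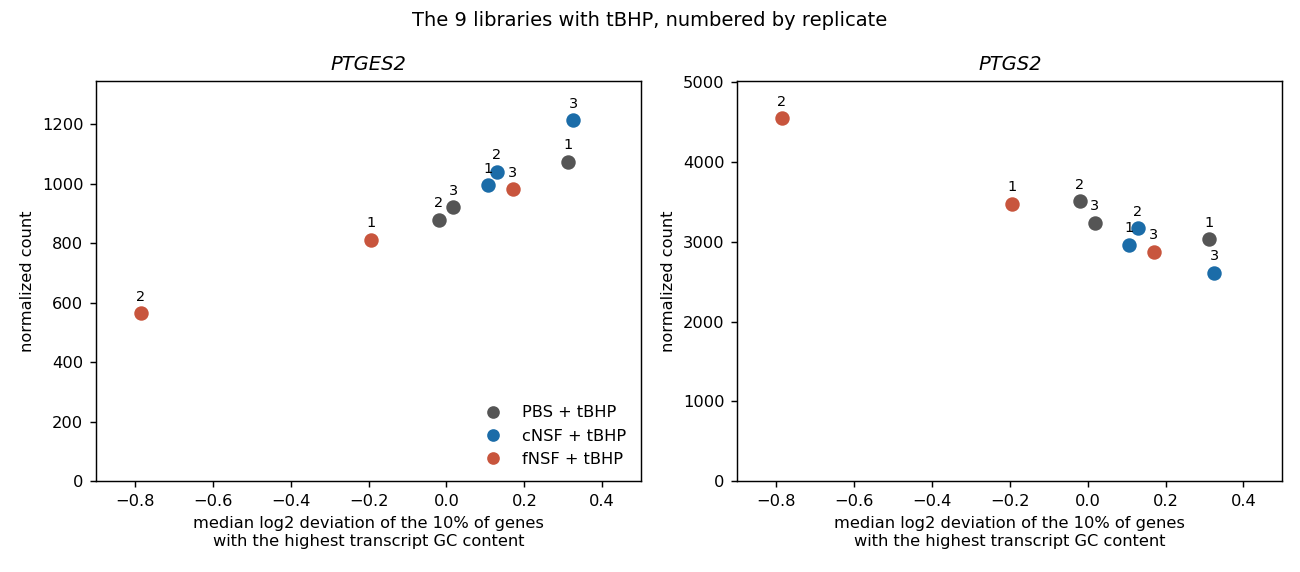
Normalized counts of PTGES2 (left) and PTGS2 (right) in the 9 libraries with tBHP, against the median log2 deviation of the 10% of genes with the highest transcript GC content in the same library. Points are libraries, coloured by pre-incubation and numbered by replicate. fNSF + tBHP replicate 2, at -0.78, has the lowest PTGES2 (565) and the highest PTGS2 (4545).

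The members' patterns over the 18 libraries were compared with each other and with the 10313 genes that had a mean of at least 100 normalized counts. These correlations are descriptions, since the points share the tBHP contrast and the GC trend. PTGS2 followed PLA2G4A and PTGES (Pearson r = 0.90 for each) and ran against PTGIS (-0.79) and PTGES3 (-0.77). The genes most like PTGS2 were MDM2, GK and SLC7A11 (r = 0.996, 0.996 and 0.995). MDM2 encodes the ubiquitin ligase of p53 and SLC7A11 the cystine transporter that feeds glutathione synthesis. The transcripts of MDM2, GK and SLC7A11 have a GC content of 41.9%, 38.2% and 35.4%, and that of PTGS2 36.9%. The genes most like PTGES were ZCCHC17, ZSCAN21 and SEPHS2 (r = 0.970, 0.953 and 0.952), and those most like PLA2G4A were NRIP3, TOP1 and ZNF134 (0.949, 0.933 and 0.932). PTGES3 was most like SCOC, DSTN and BMI1 (0.990, 0.987 and 0.986), PTGIS most like DOCK1, RBMS2 and PIP4K2C (0.944, 0.941 and 0.937), and PTGS1 most like ANPEP, BAHD1 and ZNF319 (0.918, 0.911 and 0.907). PTGES2 was most like ACAP3, RHOT2 and PDLIM7 (0.986, 0.984 and 0.981), whose transcripts have a GC content of 65.7%, 65.8% and 64.2%.

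The rest of the pathway and 8 regulators of PTGS2, together called the other pathway genes below, were read from 6 lists of 54 genes. Of these, 35 passed the filter on low values. With the same sign in all 3 tBHP responses, 10 of these rose and 5 fell (14.6% and 17.9% of all genes tested), and 13 rose and 7 fell in PBS cells (24.2% and 26.9% of all genes), 12 and 6 in cNSF cells (24.0% and 26.8%), and 10 and 8 in fNSF cells (19.2% and 22.7%). AKR1C3 passed the filter only through the libraries with tBHP, and it is among the genes counted as risen in each response. Without AKR1C3, 9 of 34 rose in all 3 responses. Regulators of PTGS2 made up 4 of the 10 that rose and 1 of the 5 that fell in all 3 responses. The median log2 response of the 35 genes was -0.0097, 0.02 and -0.04. Between pre-incubations, limma called 0 of the 35 in all 6 comparisons (0.139% of all genes between fNSF and PBS cells with tBHP and 0.0% in the other 5), with an unadjusted p under 0.05 for 0 in the 3 without tBHP and for 0, 10 and 12 in the 3 with tBHP, which 8.64%, 22.7% and 32.2% of all genes reached. Without fNSF replicate 3 with tBHP, it called 14 of the 35 between fNSF and PBS cells (29.4% of all genes) and 18 between cNSF and fNSF cells (40.8%). DESeq2 called 1 of them, the thromboxane receptor TBXA2R between fNSF and PBS cells with tBHP (adjusted p = 0.0191), where it called 3.23% of all genes, and edgeR called 0. TBXA2R is named by the rule for receptors past the filter, and this call was singled out after its values were seen.

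Of 12 genes tested for the release of arachidonic acid and its return to lipids, 1 rose and 1 fell in all 3 responses, against 14.6% and 17.9% of all genes. PLA2G6, a calcium-independent phospholipase, rose from 49.6 ± 4.97 to 124 ± 14.6 normalized counts (SD, n = 3) in PBS cells, by a log2 difference of 1.31, and by 1.26 and 0.79 in cNSF and fNSF cells (adjusted p = 0.000141, 0.000214 and 0.0104, limma). The last of these was 0.60 without fNSF replicate 3 with tBHP and did not pass (adjusted p = 0.0536). ACSL4, which activates arachidonic acid for return to lipids, fell from 4327 ± 216 to 2676 ± 339 in PBS cells, by 0.70 on the log2 scale, and by 0.65 and 0.54 after cNSF and fNSF. The secreted phospholipases PLA2G2A, PLA2G10 and PLA2G1B had no read in any library.

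Of the other terminal synthases and the reductases, 5 were tested, and 4 rose in all 3 responses, or 3 of 4 without AKR1C3 (14.6% of all genes did so). TBXAS1, thromboxane synthase, rose by log2 differences of 0.66, 0.99 and 0.88 in PBS, cNSF and fNSF cells (adjusted p = 0.000587, 1.18e-05 and 5.20e-05, limma). AKR1B1, an aldose reductase that can make prostaglandin F2α, rose by 0.46, 0.54 and 0.43, and CBR1, a carbonyl reductase that acts on PGE2, by 0.54, 0.56 and 0.47. AKR1C3, also a prostaglandin F synthase, rose by 2.49, 2.32 and 2.30, from 3.13 ± 2.31 to 20.3 ± 2.62 normalized counts in PBS cells. Its mean was 3.43 in the 9 libraries without and 21.8 in the 9 with tBHP, so that only a gene higher with tBHP could pass the filter of 10 in this way, and its rise is a description. It has near-identical paralogues among which reads could be split, and its fold change is understated at such low values. FAM213B, a prostamide and prostaglandin F synthase, passed in fNSF cells (-0.43, adjusted p = 0.0443) and not in PBS cells (-0.04) or cNSF cells (-0.18), and it passed there in 7 of 16 alternatives, with a difference of -0.28 without fNSF replicate 2 with tBHP (adjusted p = 0.168). For prostaglandin D synthases, PTGDS reached at most 6.32 normalized counts and HPGDS had no read.

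Among the genes of inactivation and transport, HPGD, which oxidises prostaglandins as the main inactivating enzyme, had no read in any library. PTGR1, a prostaglandin reductase that is also a known NRF2 target, rose by log2 differences of 0.45, 0.47 and 0.52 (adjusted p = 0.00354, 0.00281 and 0.00140, limma). It was the 1 of 3 genes tested in this list that passed in all 3 responses, as 32.4% of all genes did with 1 sign.

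Of the 6 prostaglandin and thromboxane receptors tested, 3 fell in all 3 responses (17.9% of all genes did) and 0 rose in all 3 (14.6%). PTGFR, the receptor for prostaglandin F2α, fell the most, from 239 ± 26.8 to 55.5 ± 13.3 normalized counts in PBS cells, from 225 ± 22.3 to 45.3 ± 5.69 in cNSF cells and from 256 ± 14.3 to 60.3 ± 8.85 in fNSF cells. Its log2 responses were -2.11, -2.29 and -2.08 (adjusted p = 9.53e-09, 3.98e-09 and 1.35e-08, limma). PTGER2 and PTGER4 encode the PGE2 receptors that raise cyclic AMP. PTGER2 fell from 1277 ± 53.0 to 693 ± 33.1 normalized counts in PBS cells, with log2 responses of -0.88, -0.98 and -0.94 in the 3 pre-incubations. PTGER4 fell from 112 ± 9.15 to 50.6 ± 11.5 in PBS cells, with log2 responses of -1.16, -0.87 and -1.14. All responses of these 3 receptors held in every alternative. PTGER1, a PGE2 receptor that raises calcium, rose in PBS cells (1.13, adjusted p = 0.0236, kept in 11 of 16 alternatives) and cNSF cells (1.75, adjusted p = 0.00129), and its response in fNSF cells was 0.83 (adjusted p = 0.0996). The call in PBS cells was lost with no filter on low values and when replicate 1 or 3 of either group was left out (adjusted p from 0.0528 to 0.102, limma). TBXA2R, the thromboxane receptor, rose in PBS cells (1.01, adjusted p = 0.00219) and had responses of 0.41 and -0.10 in cNSF and fNSF cells that did not pass. The difference between its responses in fNSF and PBS cells, -1.11, did not pass either (adjusted p = 0.667, limma). PTGIR, the prostacyclin receptor, had responses of 0.19, 0.73 and 0.08, none of which passed.

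**Figure D5:**
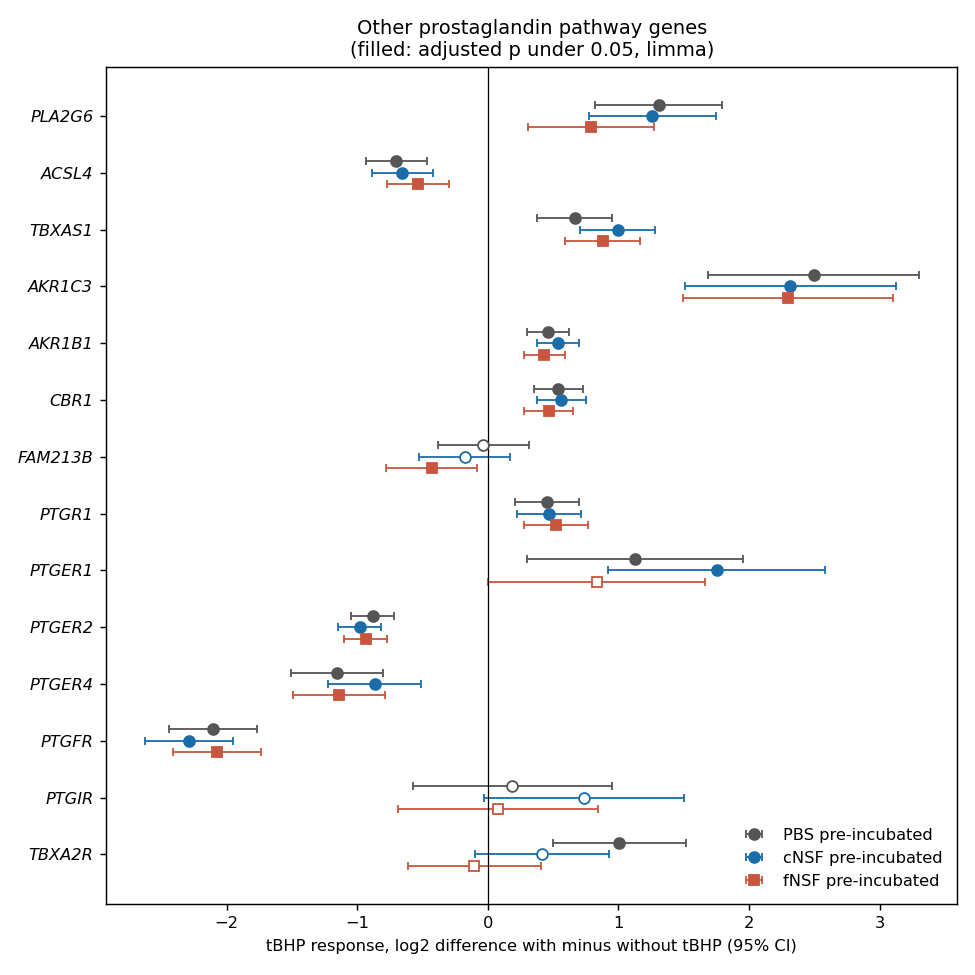
tBHP response of 14 other genes of prostaglandin metabolism and reception, as log2 differences between cells with and without tBHP (horizontal axis) with 95% confidence intervals, in PBS, cNSF and fNSF pre-incubated cells. Filled symbols passed an adjusted p of 0.05 in limma's test. PTGFR (-2.29 to -2.08), PTGER2 and PTGER4 lie to the left of 0 and the reductases AKR1C3, AKR1B1, CBR1 and PTGR1 to the right.

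Of 7 genes of the lipoxygenase branch, which competes for arachidonic acid, only LTA4H passed the filter on low values, and it was not called in any response (log2 differences of -0.0097, 0.02 and 0.16 in PBS, cNSF and fNSF cells, the last with an adjusted p of 0.113). ALOX5 had no read in any library. All 8 genes listed as regulators of PTGS2 were tested, of which 4 rose and 1 fell in all 3 responses (14.6% and 17.9% of all genes). CEBPB, whose protein binds the C/EBP site searched for above, rose from 373 ± 3.58 to 1441 ± 164 normalized counts in PBS cells, with log2 responses of 1.94, 1.66 and 1.48 (adjusted p = 7.48e-10, 6.60e-09 and 2.98e-08, limma). ZFP36, whose protein speeds the decay of PTGS2 mRNA, rose by 1.36, 1.38 and 1.19. JUN rose by 0.76, 0.65 and 0.38, the last of which passed in 9 of 17 alternatives and was 0.15 without fNSF replicate 3 with tBHP (adjusted p = 0.188, limma). Of the NF-kB subunits, RELA rose by 0.64, 0.61 and 0.44 and NFKB1 fell by 0.55, 0.40 and 0.42 on the log2 scale.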

How the data were processed

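RNA of 18 IMR90 libraries (6 groups of 3, grouped by their labels) was sequenced by the authors with the TruSeq RNA V2 kit as single-end reads of 100 nt. The submitters' processing notes name Trimmomatic 0.32, STAR 2.5.2b, featureCounts, Subread 1.5.0-p3, DESeq2 and the GRCh38.p7 build, and the annotation is not given in the sources used here. Each deposited signal, called a normalized count here, is a read count scaled by the library's DESeq2 size factor. In each library 100% of the values were whole reads within 0.01 of a read (largest deviation 5.21e-05), so reads were recovered for DESeq2 and edgeR. The table also holds 3 columns of the authors' own test (a p-value, a q-value and a rank), which were not used.

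Of 56269 genes, 31441 had a read, and the 13686 with a mean of at least 10 were tested on log2(value + 1), a scale that understates changes of low genes, with limma 3.58.1 in R 4.3.3 (two-sided, with a mean-variance trend and a coefficient for each group, Benjamini-Hochberg adjusted over all genes tested, threshold 0.05). The contrasts were 3 tBHP responses, 6 comparisons between pre-incubations and 3 differences between responses. Fold changes are 2 to the power of the log2 difference. The procedure was tested on simulated data.

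All 7 members are named, as are genes of the other lists that passed with 1 sign in all 3 tBHP responses or are receptors or terminal synthases past the filter, and, for each member, the 3 genes with the highest Pearson r among those with a mean of at least 100. Members and lists were chosen with earlier results of these data known. Positions, exon and transcript lengths and GC content came from GENCODE release 29 (GC content for 91.4% of the genes tested), and promoters from RefSeq.

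The alternatives were pseudocounts of 0.1 and 5, no filter, a higher filter (mean of 50), a common median log2 ratio for all libraries, quantile normalization, a replicate block, edgeR 4.0.16, DESeq2 1.42.0, only the groups compared, and each library left out in turn. Subtracting each library's dependence on the GC content and length of transcripts (natural splines, 5 degrees of freedom) was chosen after seeing the data. It was fitted to deviations from the mean of the libraries in the same tBHP state. A dependence shared by all libraries with tBHP therefore remained in the tBHP responses.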

Additional observations from a re-analysis of the deposited data

How the results depend on the processing

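The number of the 7 members called in a comparison stayed within 1.5 times its value except as follows. In fNSF cells, 5 members responded to tBHP, as did 5733 of 13686 genes (41.9%). When single libraries were left out, 3 to 5 members and 4773 to 6930 of all genes did. The 3 members were those without replicate 1 with tBHP, where 4829 of all genes were called. Between cNSF and fNSF cells without tBHP, a fit of only the groups compared called 2 members (PTGES3 and PTGES2) instead of 0, and 2 of the other pathway genes, with 980 of 13686 genes called against 0. With tBHP, leaving out single libraries gave 0 to 3 members between fNSF and PBS cells and 0 to 3 between cNSF and fNSF cells, and 0 to 14 and 0 to 18 of the other pathway genes, the highest counts being those without fNSF replicate 3, where 29.4% and 40.8% of all genes were called. DESeq2 called 1 member between cNSF and fNSF cells and 1 other pathway gene between fNSF and PBS cells. Between fNSF and PBS cells it called 442 of 13686 genes (3.23%). The cause was not tested. Over all genes in the comparison of cNSF with fNSF cells with tBHP, limma called 0, edgeR 0 and DESeq2 923.

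Of 1554 differences of the members under the alternatives, 90 changed sign, in 35 of 84 pairs of member and comparison and in all 7 members, and 0 of the 90 were called before or after. For PTGES2, the tBHP response in PBS cells (-0.01) was 0.00583 with quantile normalization and 0.0599 with edgeR, and ranged from -0.0953 to 0.0482 when single libraries were left out. The PTGES2 response in cNSF cells (0.08) ranged from -0.00859 to 0.135 when single libraries were left out, and was -0.0693 with the GC and length trend removed, which also gave 0.101 for fNSF minus PBS cells and -0.0312 for cNSF minus fNSF cells with tBHP. For PTGS2, the difference between fNSF and PBS cells with tBHP (0.13) was -0.108 with that trend removed and ranged from -0.0405 to 0.289 when single libraries were left out. The PTGS2 response in fNSF cells against PBS cells (0.20) was -0.0124 with the trend removed, and that in cNSF against PBS cells (-0.02) ranged from -0.0835 to 0.0555. The PTGES response in fNSF against PBS cells (0.04) ranged from -0.201 to 0.261. Without division by length, 5 of the 7 members changed rank. Of 1480 values of single genes given in the text, under the alternatives, 1411 kept their direction and their side of the threshold, 41 lost a call, 10 gained one and 18 changed sign.

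The replicate numbers shared by the groups were not shown to pair the libraries: the correlation of deviations between libraries of the same number was at most 0.1 for at least 1 pair in each comparison. With tBHP it was 0.33 for replicate 2 and -0.12 for replicate 3 between fNSF and PBS cells. Between cNSF and fNSF cells with tBHP it was 0.32 for replicate 3 and -0.02 for replicate 1. With a replicate block the members called were 6, 6 and 5 in the tBHP responses and 0 in all other comparisons, so that no count of members changed. Of all 13686 genes, 7228, 7176 and 5944 were called in these responses with the block, against 6995, 6947 and 5733 without it. The count over all genes moved from 19 to 61 between fNSF and PBS cells with tBHP. PTGES, PTGIS and PLA2G4A had as few as 40, 87 and 88 reads in a library, which limits small differences in these genes.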
